A study of Mus musculus with 16 samples.

Results

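Cholesterol synthesis, uptake, storage and oxysterol genes were examined in bulk RNA-seq of conventional type 1 dendritic cells (cDC1s) from mouse spleen. The group was a list of 33 gene symbols, chosen by their place in the pathway, and all 33 were rows of the deposited table of raw counts, which holds 24421 genes. Of these 33 genes, 31 passed the filter on low counts and were tested, while Ch25h and Cyp7b1 had too few counts. The 16 libraries formed 4 groups of 4: mature and immature cDC1s of Xbp1flIre1fl mice, and mature and immature cDC1s of Xbp1fl mice, all of strain C57BL6 and all labelled steady-state, that is, with no stimulus given. cDC1s cross-present antigen to CD8 T cells, and homeostatic maturation is the change they pass through without infection before they carry tissue antigen to T cells. The product of Ire1 (Ern1) senses stress in the ER and activates that of Xbp1, a regulator of the unfolded protein response. Per the labels these genes are floxed but not knocked out, so every library, in both lines, carries loxP-flanked alleles that were left intact and both lines count as functionally wild type. No group is free of floxed alleles. Cells were sorted by flow cytometry straight into lysis buffer; the sort gates, and whether mice were pooled, are not given in the sources used here.

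Cells make cholesterol from acetyl-CoA through mevalonate, isoprenoid diphosphates, squalene and lanosterol. When sterol in the endoplasmic reticulum (ER) is low, SCAP escorts the transcription factor SREBP2 to the Golgi, where proteases release its active part, and when sterol is high, INSIG proteins hold SCAP back. SREBP2 activates most genes of the synthesis route, so these genes often move together. Cholesterol taken up in lipoproteins is freed in lysosomes, exported by NPC2 and NPC1 and esterified by SOAT enzymes. Oxysterols made from it silence SREBP processing, activate the LXR receptors and, in lymphoid tissue, help to position immune cells through the receptor GPR183.

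In mature against immature cDC1s, 17 of the 31 tested genes rose, 6 fell and 8 were not called (edgeR quasi-likelihood test, called at a Benjamini-Hochberg adjusted p under 0.05 over all 11978 genes tested). Over all genes tested, 33.4% were called higher and 34.2% lower, so that 6 lower calls are a smaller share of the list than of all genes. These shares are also the background for the pooled counts by step and by list given below. The median log2 fold change was 0.29 over the 31 genes and -0.01 over all genes tested. Of the 31 genes, 12 were called and over 1.5-fold higher and 6 of these were over 2-fold higher, against backgrounds of 19.3% and 12.3% of all genes. None of the 31 was called and over 1.5-fold lower, where the background was 10.5%. The 8 mature and 8 immature libraries did not overlap, with mature higher, for 9 of the 31 genes, where the background was 18%. They did not overlap, with mature lower, for 4 of them, where the background was 15%. In bulk RNA, fewer cells of a type and less RNA per cell cannot be told apart.

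**Figure D1:**
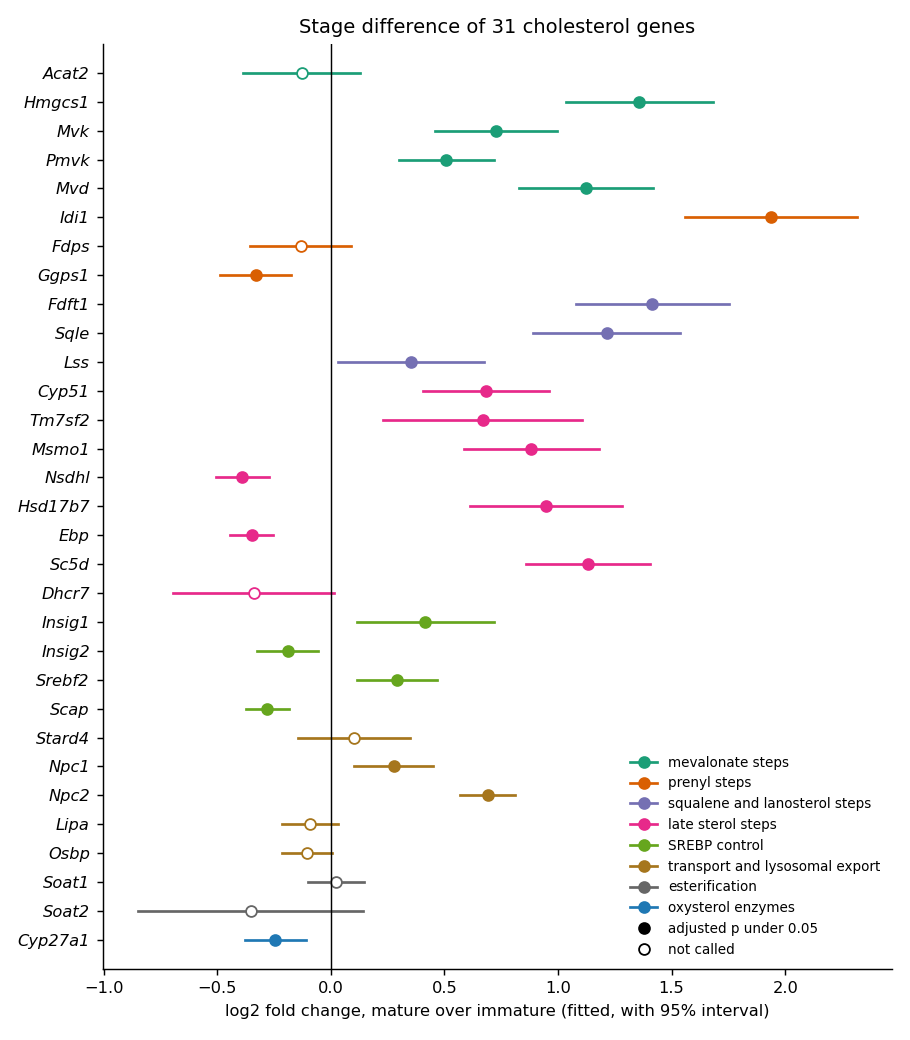
Log2 fold change of mature over immature cDC1s (x axis) for the 31 tested genes (rows, grouped and coloured by role), as points with 95% intervals from the edgeR fit; filled points had an adjusted p under 0.05. Idi1 lies farthest to the right at 1.94, and the 6 genes that fell lie between -0.39 and -0.19.

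The libraries held 13948232 to 16572576 counts in mature cDC1s and 15083053 to 17000763 counts in immature cDC1s. Levels below are CPM, counts scaled to library size after TMM normalization. The labelled stage was matched by Ccr7, the chemokine receptor of migrating dendritic cells, at 4988 to 13425 CPM in mature and 107 to 320.4 CPM in immature libraries. All 10 cDC1 markers had counts in both stages, with summed levels of 5592 to 8889 CPM in mature and 9795 to 11116 CPM in immature libraries. Of these 10 genes, 7 were called lower, 1 was called higher and 2 were not called. The mature libraries also held more RNA of 8 B cell markers (294 to 972 CPM, against 100.2 to 155 CPM in immature libraries), with all 8 genes called higher. The sum of 10 macrophage markers was 535 to 1100.2 CPM in mature and 144 to 581 CPM in immature libraries, with 7 of 10 genes called higher. Within Xbp1flIre1fl 9 of these 10 were called higher (median log2 fold change 1.69), and within Xbp1fl 3 were (median 0.53). The test of the difference between the lines called 0 of them. The sums of 6 cDC2 markers were 309.7 to 448 CPM in mature and 213 to 251 CPM in immature libraries, and those of 5 T cell markers 27.4 to 52.8 CPM and 10.5 to 29.0 CPM, with 4 of 6 and 4 of 5 genes called higher. For 7 stromal and endothelial markers the sums were 38.1 to 60.8 CPM in mature and 53.1 to 69.0 CPM in immature libraries, with Pdpn at an average of 0.0096 and 0.0345 CPM. Of these 7 genes 5 were tested, of which 1 was called higher, 1 was called lower and 3 were not called. Every marker had counts in at least 1 library. Their part in the results below was not tested. The sum of 4 proliferation markers was 198 to 302 CPM in mature and 419 to 516 CPM in immature libraries, and all 4 genes fell.

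The early steps, from acetyl-CoA to isopentenyl diphosphate, were represented by 5 genes, of which 4 rose and 1 was not called. Hmgcs1, which makes HMG-CoA in the cytosol (mm10 chr13:119690379-119708260, plus strand), ranged over the 8 mature libraries at 90.0, 148 and 216 CPM (lowest, median, highest), against 44.0, 59.4 and 67.5 CPM in the 8 immature libraries. The stages did not overlap, and the log2 fold change was 1.36 ± 0.15 (SE, adjusted p = 9.76e-07 with edgeR). Mvd, the mevalonate diphosphate decarboxylase, had 20.3, 33 and 45.4 CPM in mature against 13.1, 15.2 and 18.4 CPM in immature libraries, again without overlap and with a log2 fold change of 1.12 ± 0.14 (adjusted p = 1.64e-06, edgeR). The kinase before it in the route, Pmvk, was 1.42-fold higher, with mature libraries from 23.7 to 37.5 CPM and immature libraries from 18.4 to 24.2 CPM, which overlapped. Mvk, the kinase that acts on mevalonate itself, had 8.92, 13.0 and 16.3 CPM in mature against 6.64, 7.32 and 8.63 CPM in immature libraries, which did not overlap. Its log2 fold change was 0.73 ± 0.12 (adjusted p = 4.79e-05, edgeR). Acat2, which joins acetyl-CoA units in the cytosol at the entry of the route, averaged 7.75 ± 1.46 CPM in mature cDC1s and 8.48 ± 1.06 CPM in immature cDC1s (SD, n = 8 each) and was not called (log2 fold change -0.13 ± 0.12). Its near-identical copy Acat3 had 11 counts in all mature and 17 in all immature libraries.

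The largest change of the 31 genes was that of Idi1, the isopentenyl diphosphate isomerase (mm10 chr13:8885501-8892451, plus strand). It reached 143, 236 and 306 CPM in mature cDC1s, against 40.5, 60.2 and 74.0 CPM in immature cDC1s. The lowest mature library lay above the highest immature one, and the log2 fold change was 1.94 ± 0.17, or 3.83-fold (adjusted p = 1.6e-07, edgeR). Its paralog Idi2, which lies near Idi1 on chromosome 13, had 162 counts over the mature and 6 over the immature libraries, with no count in 6 of the 8 immature ones; how the authors' counting divides reads between the copies is not given in the sources used here. The prenyl diphosphate synthases that act next did not follow Idi1. Fdps, which makes farnesyl diphosphate, was not called (log2 fold change -0.13 ± 0.10, adjusted p = 0.254, edgeR), with mature libraries from 80.3 to 144 CPM and immature ones from 95.1 to 136 CPM. With the replicate number as a block its adjusted p was 0.0397. Ggps1, which makes geranylgeranyl diphosphate for protein prenylation, had 19, 23.6 and 26.2 CPM in mature against 26.3, 29.4 and 33.2 CPM in immature libraries. These did not overlap, and Ggps1 fell by 0.33 ± 0.07 on the log2 scale (adjusted p = 0.000515, edgeR).

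At the branch towards sterol, Fdft1 (squalene synthase), Sqle (squalene epoxidase) and Lss (lanosterol synthase) all rose. Fdft1 had 37.3, 59.8 and 88.0 CPM in mature against 19.6, 22.4 and 30.0 CPM in immature libraries. The stages did not overlap, and its log2 fold change was 1.41 ± 0.15 (adjusted p = 9.11e-07, edgeR). Exons of Fdft1 overlap those of the lysosomal protease gene Ctsb on the other strand over 774 bases. Ctsb also rose, at 1049 ± 69.4 CPM in mature cDC1s and 669 ± 25.5 CPM in immature cDC1s (log2 fold change 0.65). Since strand use is not stated, reads of that overlap cannot be told apart, and their part in the Fdft1 count was not tested. Sqle had 66.4, 104 and 149 CPM in mature against 35.3, 46.7 and 56.4 CPM in immature libraries, with no overlap and a log2 fold change of 1.21 ± 0.15 (adjusted p = 3.19e-06, edgeR). Lss passed the threshold narrowly: 23.2 ± 5.68 CPM in mature cDC1s and 18.1 ± 3.34 CPM in immature cDC1s (SD, n = 8 each), a log2 fold change of 0.35 ± 0.15 and an adjusted p of 0.0445 (edgeR). That call was lost in 15 of 25 alternative settings, in which its adjusted p reached 0.449. Among single libraries left out it held only without replicate 2 of mature or replicates 3 or 4 of immature Xbp1flIre1fl, or without replicate 4 of mature or replicate 1 of immature Xbp1fl.

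Of the 8 genes of the late steps, which turn lanosterol into cholesterol, 5 rose, 2 fell and 1 was not called. Sc5d, the sterol C5 desaturase, changed most, with 48.0, 74.5 and 100.2 CPM in mature against 28.1, 35.5 and 39.1 CPM in immature libraries. There was no overlap, and the log2 fold change was 1.13 ± 0.12 (adjusted p = 7.22e-07, edgeR). Hsd17b7, the 3-ketosterol reductase, had 10.6, 19.6 and 24.6 CPM in mature against 6.51, 9.31 and 14 CPM in immature libraries, and these overlapped (log2 fold change 0.95 ± 0.15). Msmo1, the sterol C4 methyl oxidase, had 39.3, 56.3 and 83.0 CPM in mature against 25.6, 31.1 and 39.1 CPM in immature libraries. The lowest mature library lay just above the highest immature one (log2 fold change 0.88 ± 0.14). Cyp51, the lanosterol demethylase, had 93.4, 131 and 163 CPM in mature against 59.8, 85.2 and 100.5 CPM in immature libraries, which overlapped (log2 fold change 0.68 ± 0.13). The sterol C14 reductase gene Tm7sf2 had the lowest level of the synthesis genes, with 1.08, 2.16 and 2.75 CPM in mature against 1.06, 1.34 and 1.68 CPM in immature libraries. Its log2 fold change was 0.67 ± 0.20 (adjusted p = 0.0071, edgeR), and the lowest mature library lay within the immature range. Exons of Tm7sf2 overlap those of Vps51 on the same strand over 532 bases, and Vps51 averaged 110.2 CPM in mature cDC1s and 80.2 CPM in immature cDC1s, so its part in the few counts of Tm7sf2 was not tested.

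**Figure D2:**
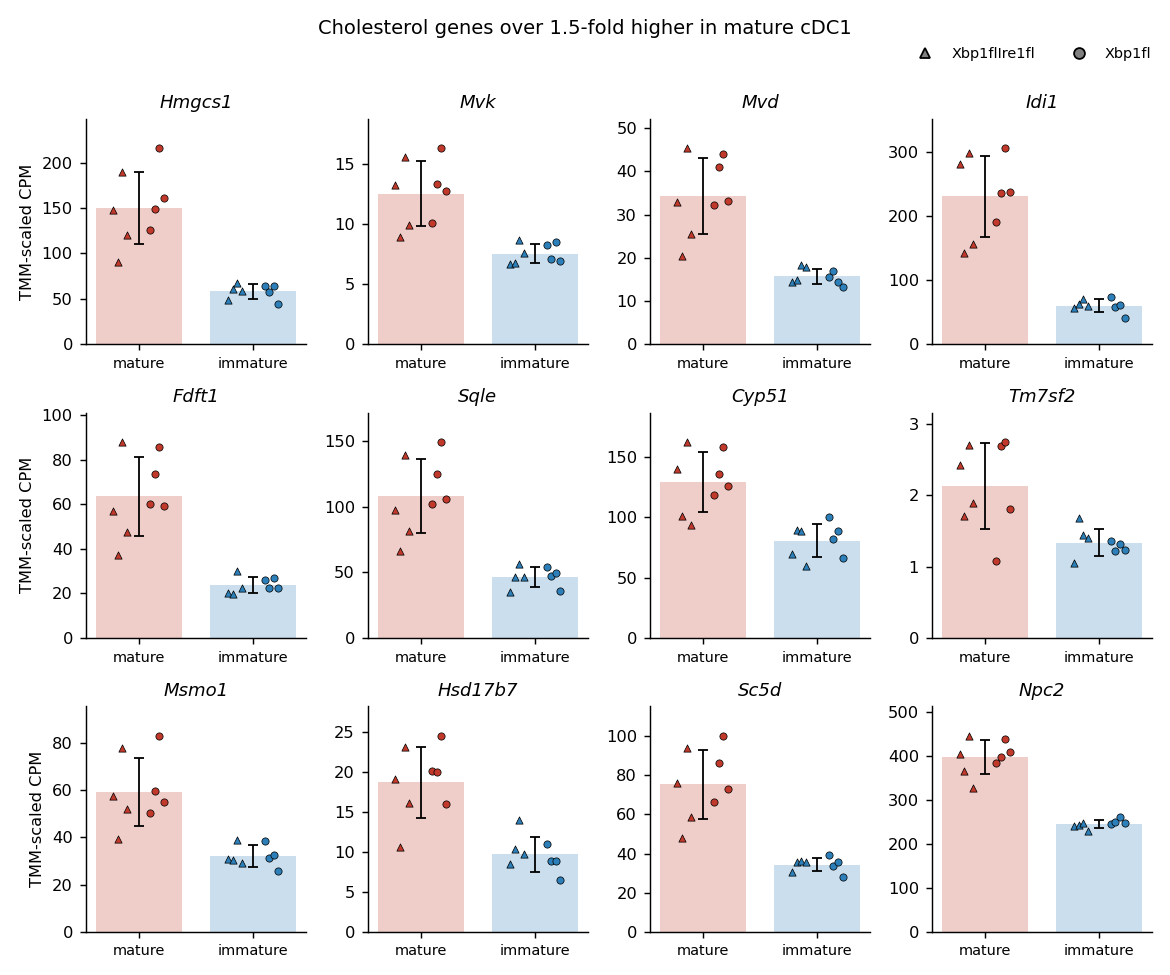
TMM-scaled CPM in each library (points; triangles Xbp1flIre1fl, circles Xbp1fl) for the 12 genes called and over 1.5-fold higher in mature cDC1s, with mature left of immature in each panel; bars are means of 8 libraries and error bars are SD. In absolute CPM, mature libraries spread more widely than immature ones, as for Idi1 with 143 to 306 CPM against 40.5 to 74.0 CPM. Their levels are also higher, and spread relative to level was not compared.

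Against this rise, Nsdhl and Ebp fell. Nsdhl, the sterol C4 decarboxylase that acts in the same demethylation complex as Msmo1 and Hsd17b7, had 21.9, 25.3 and 28.0 CPM in mature against 31, 33.3 and 35.8 CPM in immature libraries. No mature library reached the lowest immature one, and the log2 fold change was -0.39 ± 0.05 (adjusted p = 4.63e-06, edgeR). Ebp, the sterol isomerase, had 31.8, 35.6 and 39.8 CPM in mature against 43.4, 45.5 and 49.99 CPM in immature libraries, again without overlap (log2 fold change -0.35 ± 0.04, adjusted p = 1.32e-06, edgeR). Dhcr7, the reductase that makes cholesterol from 7-dehydrocholesterol, had 10.4 ± 2.91 CPM in mature cDC1s and 13.5 ± 5.24 CPM in immature cDC1s (SD, n = 8 each). It was not called at a log2 fold change of -0.34 ± 0.16 (adjusted p = 0.0742, edgeR), but with the replicate number as a block its adjusted p was 0.0051. It was also called without replicate 4 of mature Xbp1flIre1fl, replicate 3 of mature Xbp1fl or replicates 1 or 4 of immature Xbp1fl.

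The deposited tables hold no sequence, so promoters were read from RefSeq (build GRCm38.p6), as windows from 250 bases before to 50 bases after each listed start of a gene. A window was found for 26 of the 33 genes, and Fdps, Fdft1, Sqle, Npc1, Stard4, Soat2 and Cyp7b1 had none. Insig2 and Dhcr7 had 3 windows each, and Pmvk and Scap had 2 each. A gene was counted for a motif if any of its windows held a match. Shown are 4 genes that rose over 2-fold and the 2 late-step genes that fell, at the ends of the range of synthesis genes that have a window. Fdft1 and Sqle also rose over 2-fold but, without a window, are in none of the motif counts. Each line reads 5′ to 3′ along the gene's strand. Capitals mark the CCAAT box in either orientation (CCAAT or ATTGG), a short element bound by the factor NF-Y that often lies beside SREBP sites, and in Hmgcs1 also the sterol regulatory element match TCACCCCAC.
Idi1 (chr13:8885356-8885655, plus strand): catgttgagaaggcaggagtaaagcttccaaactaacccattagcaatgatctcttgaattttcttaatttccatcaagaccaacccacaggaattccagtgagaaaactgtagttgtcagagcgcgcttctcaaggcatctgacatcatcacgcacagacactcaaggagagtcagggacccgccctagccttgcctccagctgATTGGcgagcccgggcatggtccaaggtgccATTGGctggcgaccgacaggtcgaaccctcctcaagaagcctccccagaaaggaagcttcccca
Hmgcs1 (chr13:119690101-119690400, plus strand): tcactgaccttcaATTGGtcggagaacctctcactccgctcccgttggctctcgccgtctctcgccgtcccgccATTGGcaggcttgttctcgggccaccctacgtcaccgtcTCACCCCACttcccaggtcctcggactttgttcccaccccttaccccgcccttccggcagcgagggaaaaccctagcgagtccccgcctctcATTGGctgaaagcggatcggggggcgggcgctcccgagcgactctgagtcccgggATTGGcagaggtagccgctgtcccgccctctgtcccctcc
Mvd (chr8:122443373-122443672, minus strand): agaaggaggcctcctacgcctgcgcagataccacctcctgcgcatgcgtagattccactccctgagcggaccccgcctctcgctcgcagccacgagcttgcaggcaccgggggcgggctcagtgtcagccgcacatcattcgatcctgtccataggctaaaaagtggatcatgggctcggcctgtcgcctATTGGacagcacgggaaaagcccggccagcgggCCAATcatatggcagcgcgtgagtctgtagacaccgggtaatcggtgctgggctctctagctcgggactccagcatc
Sc5d (chr9:42264251-42264550, minus strand): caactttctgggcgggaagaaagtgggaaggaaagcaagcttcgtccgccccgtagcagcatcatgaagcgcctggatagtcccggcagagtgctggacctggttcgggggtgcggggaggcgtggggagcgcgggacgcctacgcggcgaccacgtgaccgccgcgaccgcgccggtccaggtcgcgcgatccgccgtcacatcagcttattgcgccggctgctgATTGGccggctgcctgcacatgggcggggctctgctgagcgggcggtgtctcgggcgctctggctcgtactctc
Nsdhl (chrX:72918271-72918570, plus strand): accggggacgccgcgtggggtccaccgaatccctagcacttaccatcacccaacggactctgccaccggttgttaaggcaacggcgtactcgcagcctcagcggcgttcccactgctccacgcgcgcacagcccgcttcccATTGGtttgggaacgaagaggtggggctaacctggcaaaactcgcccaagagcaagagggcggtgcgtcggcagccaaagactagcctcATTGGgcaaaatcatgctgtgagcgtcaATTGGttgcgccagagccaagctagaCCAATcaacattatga
Ebp (chrX:8193463-8193762, minus strand): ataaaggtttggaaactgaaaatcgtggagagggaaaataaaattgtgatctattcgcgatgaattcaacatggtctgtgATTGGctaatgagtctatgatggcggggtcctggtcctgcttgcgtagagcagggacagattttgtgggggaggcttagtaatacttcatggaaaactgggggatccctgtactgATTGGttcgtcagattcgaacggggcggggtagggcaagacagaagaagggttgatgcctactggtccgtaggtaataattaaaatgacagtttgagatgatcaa

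The CCAAT box (letters CCAAT, both strands) was in the windows of 23 of the 26 genes (88.5%), against 43% of the 9209 tested genes that have a window and 41.1% of all 27025 genes of the RefSeq table. It stood in all 11 synthesis genes that rose and have a window, and in 4 of the 5 synthesis genes with a window that did not rise. Genes that rose and genes that fell thus both carried it, as the Idi1 and Ebp windows show with 2 copies each and the Hmgcs1 and Nsdhl windows with 4 each. The sterol regulatory element was searched as TCACNCCAC on both strands and was found in 1 of the 26 genes, Hmgcs1, 137 bases before the start. Of tested genes, 1.36% hold it. A looser form, TCACNNCA, which every match of the longer letters also contains, was in 10 of 26 genes (38.5%), against 13.3% of tested genes and 15.7% of all genes. It was in 6 of 11 synthesis genes that rose (54.5%) and in 2 of 5 that did not (40%). The E-box CACGTG was in 5 of 26 genes (19.2%, against 11.7% of tested genes), and the GC box GGGCGG in 23 of 26 (88.5%, against 68.4%). Such matches describe letters in these windows only.

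Read per length, as CPM per kilobase of exon, the order of the synthesis genes differed between the stages. In mature cDC1s Idi1 stood highest at 66 CPM per kb, followed by Hmgcs1 at 32.6, Cyp51 at 29.4 and Fdps at 24.8. In immature cDC1s Fdps stood highest at 27.1 CPM per kb, followed by Ebp at 20.02, Cyp51 at 18.3 and Idi1 at 17.2. Over all 33 genes, Npc2 (72.9), Srebf2 (67.4) and Idi1 were highest in mature cDC1s and Srebf2 (55.0), Cyp27a1 (53.1) and Lipa (47.4) in immature cDC1s; neighbours in this order were not tested against each other. The 19 synthesis genes summed to 792, 1157 and 1512 CPM in mature libraries (lowest, median, highest), against 547, 654 and 749 CPM in immature libraries. The sums did not overlap.

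**Figure D3:**
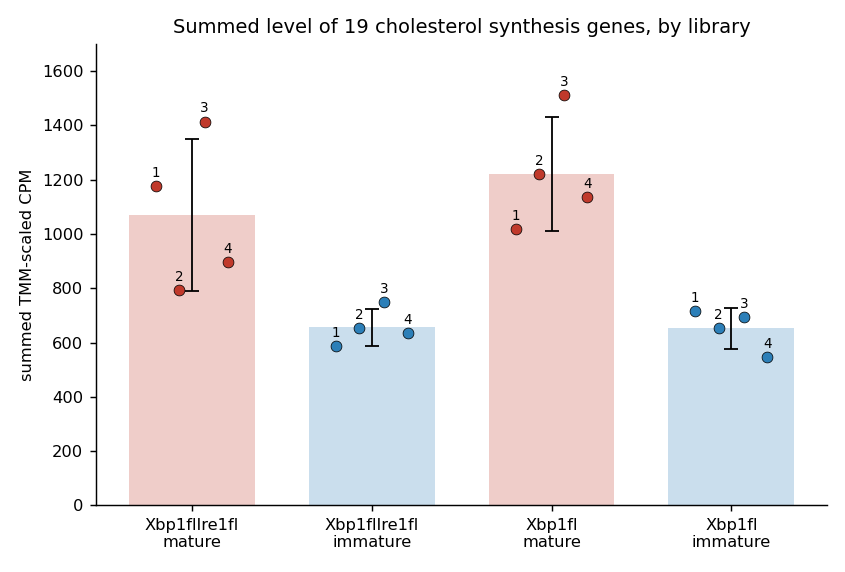
Summed TMM-scaled CPM of the 19 synthesis genes (y axis) in each library, numbered by replicate, for the mature and immature cDC1s of each floxed line; bars are means of 4 libraries and error bars are SD. The mature libraries lie between 792 and 1512 CPM, all above the immature libraries, which lie between 547 and 749 CPM.

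Libraries of a group differed among themselves in both stages. Replicate 3 of mature Xbp1flIre1fl had the highest value of its group for 14 of the 19 synthesis genes, and replicate 3 of mature Xbp1fl for 16 of 19. Among immature libraries, replicate 3 of Xbp1flIre1fl was highest of its group for 14 of 19, and replicate 1 of Xbp1fl for 11 of 19. Replicates 2 and 4 of mature Xbp1flIre1fl had the lowest sums of all mature libraries, 792 and 896 CPM, and also the lowest Ccr7, 6574 and 4988 CPM; whether one bears on the other was not tested. Their B cell marker sums were 295 and 638 CPM and their macrophage sums 535 and 886 CPM. In replicate 3 of mature Xbp1flIre1fl these sums were 972 and 1100.2 CPM, the highest of all 16 libraries. In replicate 3 of mature Xbp1fl they were 594 and 675 CPM. Whether these sums bear on the synthesis genes was not tested. Without replicates 2 and 4 of mature Xbp1flIre1fl, 17 of the 31 genes were called higher and 7 lower. The added one was Lipa, at a log2 fold change of -0.19 and an adjusted p of 0.000813 (edgeR). Within Xbp1flIre1fl, 15 were then called higher and 7 lower, and within Xbp1fl 17 higher and 7 lower. Calls over all genes rose too. Of the 12315 genes tested in that fit, 4175 were called higher and 4275 lower in the pooled contrast. Within Xbp1flIre1fl, 3568 and 3440 of them were, against 3285 and 3121 of 11978 with every library. Within Xbp1fl, 3543 and 3616 were, against 3407 and 3391. Same-numbered mature and immature libraries of a line deviated together from their group means (correlation of 0.211 to 0.547 across 9805 genes, which are not independent replicates), so that a ratio within each of the 8 pairs can be given. The mature to immature ratio of Idi1 was 2.29 to 5.85 over the 8 pairs, that of Hmgcs1 1.49 to 3.66, that of Fdft1 1.90 to 3.28 and that of Sc5d 1.35 to 2.83. Ratios of Nsdhl were 0.642 to 0.838 and those of Ebp 0.708 to 0.827, so both were lower in 8 of 8 pairs. Lss and Tm7sf2 were higher in 7 of 8 pairs.

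Among the 4 genes that control SREBP, 2 rose and 2 fell, all by less than 1.5-fold. Srebf2, which encodes SREBP2 (mm10 chr15:82147181-82205379, plus strand), had 484 ± 63.1 CPM in mature cDC1s and 395 ± 38.6 CPM in immature cDC1s (SD, n = 8 each), a log2 fold change of 0.29 ± 0.08 (adjusted p = 0.00381, edgeR). Insig1, the ER anchor that is itself an SREBP target, had 63.6 ± 14.7 CPM in mature cDC1s and 47.5 ± 8.96 CPM in immature cDC1s (log2 fold change 0.42 ± 0.14, adjusted p = 0.0146). Both ranges overlapped between the stages. Insig2, the anchor that does not depend on SREBP in the same way, had 25.2, 28.1 and 32.1 CPM in mature against 28.7, 32.2 and 34.5 CPM in immature libraries, which overlapped (log2 fold change -0.19 ± 0.06). It was nevertheless lower in all 8 pairs. Scap, the escort of SREBP2, had 103, 108 and 121 CPM in mature against 128, 133 and 141 CPM in immature libraries, without overlap (log2 fold change -0.28 ± 0.04, adjusted p = 2.06e-05, edgeR).

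**Figure D4:**
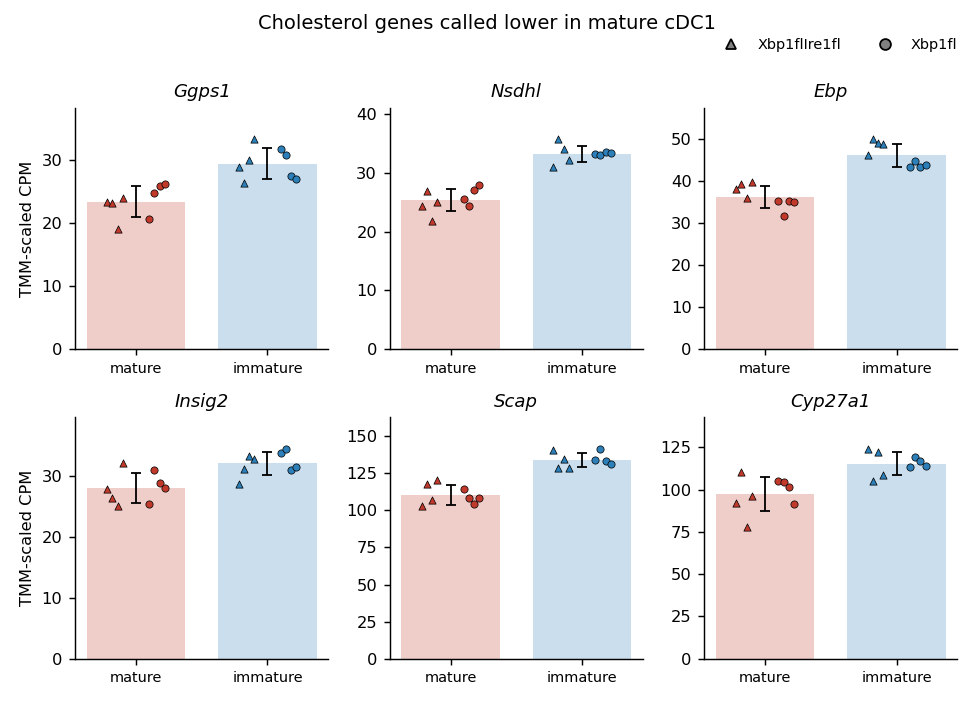
TMM-scaled CPM in each library (points; triangles Xbp1flIre1fl, circles Xbp1fl) for the 6 genes called lower in mature cDC1s, with mature left of immature in each panel; bars are means of 8 libraries and error bars are SD. For Ggps1, Nsdhl, Ebp and Scap no mature library reaches the immature range, and for Insig2 and Cyp27a1 the stages overlap.

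In transport and lysosomal export, 2 of 5 genes rose and 3 were not called. Npc2, the soluble lysosomal carrier that hands cholesterol to NPC1 (mm10 chr12:84754562-84773152, minus strand), had the smallest adjusted p of the 31 genes. It ranged at 327, 402 and 446 CPM in mature against 229, 246 and 260.5 CPM in immature libraries, with no overlap and a log2 fold change of 0.69 ± 0.06 (adjusted p = 6.5e-09, edgeR). Its membrane partner Npc1 rose less, with 15.2 ± 1.73 CPM in mature cDC1s and 12.5 ± 0.872 CPM in immature cDC1s (log2 fold change 0.28 ± 0.08, adjusted p = 0.00511). Lipa, the lysosomal acid lipase that frees cholesterol from its esters, averaged 301 ± 28.2 CPM in mature cDC1s and 321 ± 21.7 CPM in immature cDC1s and was not called (95% interval of the log2 fold change -0.22 to 0.03). Stard4, a cytosolic sterol carrier, averaged 18.8 and 17.5 CPM in mature and immature libraries and was not called (95% interval -0.15 to 0.35); its sign turned with other scalings, to -0.13 with library sizes alone, still not called. Osbp, which exchanges sterol between ER and Golgi, averaged 81.7 and 87.9 CPM and was not called (adjusted p = 0.0692, edgeR); with the replicate block its adjusted p was 0.048. It was also called without replicate 4 of mature or replicate 3 of immature Xbp1flIre1fl, or without replicate 3 of mature Xbp1fl.

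Esterification genes were not called. Soat1, the acyltransferase that stores cholesterol as ester in most cells, averaged 135 ± 11.8 CPM in mature cDC1s and 133 ± 11.0 CPM in immature cDC1s (SD, n = 8 each), with a 95% interval of the log2 fold change from -0.10 to 0.15. Soat2, known from liver and intestine, had 0.590, 1.59 and 2.52 CPM in mature against 1.42, 1.97 and 3.28 CPM in immature libraries, which overlapped (log2 fold change -0.35 ± 0.23, adjusted p = 0.176, edgeR).

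Of the 3 oxysterol enzymes, Cyp27a1, the mitochondrial sterol 27-hydroxylase, was the abundant one. It had 78, 98.8 and 110.4 CPM in mature against 105, 115 and 124 CPM in immature libraries, which overlapped, and fell by 0.24 ± 0.06 on the log2 scale (adjusted p = 0.00194, edgeR). Ch25h, which makes 25-hydroxycholesterol, had 0.137, 0.450 and 0.749 CPM in mature against 0, 0.112 and 0.175 CPM in immature libraries. These are 51 counts over 8 mature and 13 over 8 immature libraries, where 3 counts correspond to 0.189 to 0.231 CPM in mature and 0.161 to 0.186 CPM in immature libraries. With no filter on low counts its log2 fold change was 2.05 ± 0.53 (adjusted p = 0.00246, edgeR). In that fit Ch25h was called within Xbp1flIre1fl (2.48 ± 0.72, adjusted p = 0.00846, edgeR) and not within Xbp1fl (1.61 ± 0.78, adjusted p = 0.113, edgeR). The interaction had an unadjusted p of 0.457 (edgeR). All immature libraries lay at or under 3 counts, and 2 of 8 mature ones too. Cyp7b1, which hydroxylates oxysterols further, had 33 counts over the mature and 13 over the immature libraries, at 0, 0.3496 and 0.555 CPM against 0, 0.0566 and 0.349 CPM, and without the filter its adjusted p was 0.092 (edgeR). The difference for Cyp7b1 was thus not called, at counts this low.

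The stage differences were read in each line. Within Xbp1flIre1fl, 12 of the 31 genes were called higher and 5 lower, where 27.4% and 26.1% of all genes were. Within Xbp1fl, 16 were called higher and 5 lower, where 28.4% and 28.3% of all genes were. The sign was the same in both lines for 30 of 31 genes, Fdps being the other one, and for 89.2% of all genes tested. The same 16 genes were called in both lines with the same sign. Tm7sf2, Insig1, Insig2, Srebf2 and Npc1 were called within Xbp1fl and not within Xbp1flIre1fl, while Cyp27a1 was called within Xbp1flIre1fl and not within Xbp1fl. Idi1 had a log2 fold change of 1.82 within Xbp1flIre1fl and 2.05 within Xbp1fl, and Hmgcs1 of 1.22 and 1.5. Hsd17b7 differed most, with 0.70 within Xbp1flIre1fl and 1.20 within Xbp1fl (interaction -0.50 ± 0.31, unadjusted p = 0.122 and adjusted p = 1.00, edgeR). The interaction, the test of the difference between the lines, called 0% of all genes higher and 0% lower by edgeR. At an unadjusted p under 0.05 it held 329 of 11978 genes and 0 of the 31, and DESeq2 and limma called none either, with 343 and 298 genes at that level. With the replicate block 4 of the 31 genes were at that level, among 552 of all genes, and without replicate 3 of mature Xbp1flIre1fl 5 of the 31 were, among 541; neither fit called any gene after adjustment. The median interaction of the 31 genes was -0.10, and without replicates 2 and 4 of mature Xbp1flIre1fl, the 2 mature libraries of lowest Ccr7, it was 0.02. These 2 libraries also had the lowest synthesis sums of all mature libraries. Leaving them out thus raises the stage change within Xbp1flIre1fl by construction, and this shift decides nothing about the lines.

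With the replicate number as a block, Dhcr7 and Lss were also called within Xbp1fl, at adjusted p = 0.00613 and 0.0102, and Fdps and Srebf2 within Xbp1flIre1fl, at adjusted p = 0.00999 and 0.00126 (edgeR). Tm7sf2, Insig2 and Npc1 were then no longer called within Xbp1fl, at adjusted p = 0.0901, 0.0505 and 0.0531. When each of the 16 libraries was left out in turn, the call within Xbp1fl was lost 11 times for Insig2, 9 times for Tm7sf2, 6 times each for Insig1 and Npc1, and 4 times each for Srebf2 and Ggps1. Within Xbp1flIre1fl it was lost 5 times for Pmvk, and once for Hsd17b7, without replicate 3 of mature Xbp1flIre1fl. Without replicate 1 of mature Xbp1fl, or without replicate 2 of immature Xbp1fl, 3 genes were called lower within Xbp1fl.

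**Figure D5:**
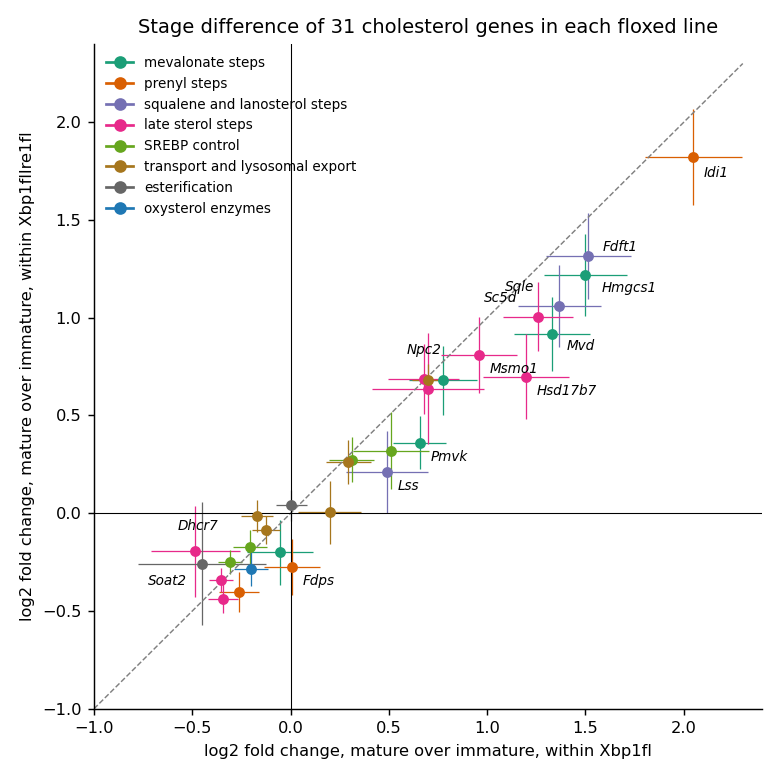
Log2 fold change of mature over immature within Xbp1flIre1fl (y axis) against that within Xbp1fl (x axis) for the 31 tested genes, coloured by role; error bars are SE and the dashed line marks equal values. Of the 17 genes that rose, 16 lie below the line (94.1%, against 62.8% of all 3995 genes called higher), as Hsd17b7 does at 0.70 against 1.20, and the interaction called none of them.

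The lines were also compared within a stage. None of the 31 genes was called between mature Xbp1flIre1fl and mature Xbp1fl, where 0.0501% of all genes were called higher and 0.0918% lower. None was called between the immature groups, where 0.0584% and 0.0751% were (edgeR). At an unadjusted p under 0.05, 1 gene passed in mature and 2 in immature cDC1s. The count in mature cDC1s depended on single libraries and the fit. It was 11 of 31 without replicate 3 of mature Xbp1flIre1fl (1106 of all genes, against 754 with every library). It was 3 without replicate 1 of mature Xbp1fl and 0 without replicate 2 of mature Xbp1fl. With the replicate number as a block across the lines it was 5 (918 of all genes), although same-numbered libraries of the lines did not match. It was 2 without replicate 2 of mature Xbp1flIre1fl or replicate 4 of mature Xbp1fl. The count in immature cDC1s was 1 without replicates 2 or 3 of immature Xbp1flIre1fl or replicates 1 or 3 of immature Xbp1fl. Ebp, the one in mature cDC1s, was 36.0 to 39.8 CPM in mature Xbp1flIre1fl and 31.8 to 35.3 CPM in mature Xbp1fl libraries, which did not overlap (log2 fold change 0.16, adjusted p = 0.627). It was also 46.2 to 49.99 CPM in immature Xbp1flIre1fl and 43.4 to 44.9 CPM in immature Xbp1fl libraries (log2 fold change 0.14, adjusted p = 0.972). Dhcr7, the other one, was 9.001 to 11.4 CPM in immature Xbp1flIre1fl and 11.1 to 23.1 CPM in immature Xbp1fl libraries (log2 fold change -0.72 ± 0.23, adjusted p = 0.762).

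Genes around the route were read from lists, against the background of 33.4% of all genes called higher and 34.2% called lower. Of 10 genes that use prenyl diphosphates, 8 fell, 0 rose and 2 were not called, with a median log2 fold change of -0.27. Coq2, which attaches the prenyl tail of coenzyme Q, averaged 46.7 ± 7.15 CPM in mature cDC1s and 77.0 ± 6.75 CPM in immature cDC1s (log2 fold change -0.72 ± 0.09, adjusted p = 1.1e-06, edgeR), and the stages did not overlap. Pdss1, a subunit of the synthase that makes that tail, averaged 2.93 and 4.93 CPM (log2 fold change -0.75 ± 0.15). The others called were Fnta, Fntb, Rabggta, Dhdds, Nus1 and Pdss2, by -0.53 to -0.17; Pggt1b was not called, nor was Rabggtb, whose adjusted p with the replicate block was 0.0255 at a log2 fold change of 0.25. Rabggtb was also called higher without replicates 3 or 4 of mature Xbp1flIre1fl or replicate 4 of immature Xbp1fl.

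Of 8 genes of SREBP processing and sterol sensing, 2 rose, 1 fell and 5 were not called. Pgrmc1, an ER haem protein that binds sterol enzymes, rose by 0.36 ± 0.07 on the log2 scale, at 44.8 ± 5.14 CPM in mature cDC1s and 35.0 ± 2.19 CPM in immature cDC1s. Mbtps1, the site-1 protease that cleaves SREBPs, had 116 and 108 CPM and a log2 fold change of 0.10 ± 0.04 (adjusted p = 0.0473, edgeR), and its call was lost with the replicate block (adjusted p = 0.0703). Rnf139, an ER ubiquitin ligase, fell by 0.13 ± 0.05 on the log2 scale (adjusted p = 0.0292, edgeR). The count of genes that rose stayed at 2 without replicates 2 or 3 of mature Xbp1flIre1fl or replicate 2 of mature or immature Xbp1fl, and was 1 without any other single library. The call of Rnf139 was lost without replicates 2 or 3 of mature or replicate 4 of immature Xbp1flIre1fl, or without replicate 1 of mature or immature Xbp1fl.

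Of 17 sterol transfer and ester hydrolysis genes, 16 were tested, since Osbpl6 had too few counts. Of the 16, 7 rose and 5 fell, where 33.4% of all genes were called higher and 34.2% lower. Osbpl5, 1 of the 7, was called narrowly (log2 fold change 0.80, adjusted p = 0.027, edgeR), and its call was lost with the replicate block (adjusted p = 0.0539). It was also lost without replicate 3 of mature or replicate 1 of immature Xbp1flIre1fl, or without replicate 3 of mature or immature Xbp1fl. Gramd1a and Gramd1b, which carry cholesterol from the plasma membrane to the ER, were among those that rose. Gramd1a had 52.5 ± 8.01 CPM in mature cDC1s and 21.3 ± 1.33 CPM in immature cDC1s (SD, n = 8 each; log2 fold change 1.30 ± 0.09, adjusted p = 4.93e-10, edgeR). Gramd1b had 19.4 ± 4.06 and 6.64 ± 1.28 CPM (log2 fold change 1.55 ± 0.14). Both genes had no overlap between the stages. Lbr, the inner nuclear membrane protein that shares the C14 reductase activity of Tm7sf2, fell instead, at 143 ± 14.7 CPM in mature cDC1s and 211 ± 17.4 CPM in immature cDC1s (log2 fold change -0.57 ± 0.05, adjusted p = 2.81e-08, edgeR). Stard3, a late endosomal sterol carrier, had 37.1 ± 2.75 CPM in mature cDC1s and 48.8 ± 3.08 CPM in immature cDC1s (log2 fold change -0.40 ± 0.05).

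Of 5 further oxysterol handling genes, 4 were tested and 3 rose, while Cyp46a1 had no count in any library. Cyp39a1, an oxysterol 7-hydroxylase, had 1.23 ± 0.634 CPM in mature cDC1s and 0.353 ± 0.207 CPM in immature cDC1s (log2 fold change 1.92 ± 0.42), and the stages overlapped. Hsd3b7, which acts on 7-hydroxylated sterols, had 70.7 ± 5.55 and 61 ± 4.16 CPM (log2 fold change 0.21 ± 0.05). Sult2b1, a sterol sulfotransferase, had 1.11 and 0.539 CPM (log2 fold change 1.02 ± 0.31). Gpr183, the receptor for dihydroxycholesterols, averaged 28.3 ± 6.28 CPM in mature cDC1s and 26.5 ± 3.59 CPM in immature cDC1s and was not called (adjusted p = 0.477, edgeR).

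Other exon overlaps touch called genes. Ggps1 shares 257 exonic bases with Arid4b on the other strand, which rose (log2 fold change 0.56) while Ggps1 fell. Cyp51 shares 166 with Akap9, whose log2 fold change was 0.33, and Lss shares 381 with 4930483K19Rik, which averaged 0.0166 CPM in mature cDC1s and 0 CPM in immature cDC1s. Further overlaps are with genes not analysed here: on the other strand, Scap shares 985 bases with 5830462I19Rik, Hmgcs1 557 with Gm48342, Npc1 511 with Rmc1 and 90 with Gm15956, Idi1 323 with Gm48574 and Ch25h 159 with Gm26902, and on the same strand Fdps shares 1124 with Gm43738. How reads of these exons were assigned is not given in the sources used here. The direction of small changes also depended on the scaling. The median log2 fold change of all genes was -0.01 with TMM, -0.13 with upper quartile scaling and -0.23 with library sizes alone. The 31 genes then split into 13 higher and 10 lower with upper quartile scaling and 12 higher and 13 lower with library sizes alone. Of all genes, 26.8% were then called higher and 43.7% lower with upper quartile scaling, and 22.7% higher and 50.9% lower with library sizes alone. The calls lost were those of Insig1, Npc1, Srebf2 and Lss in both, and of Tm7sf2 with library sizes alone. The medians of the 31 genes, 0.17 and 0.06 in these settings, stayed above those of all genes.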

How the data were processed

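RNA from 16 libraries of sorted splenic cDC1s was analysed from 2 deposited tables. Per the submitters' processing notes, the upstream tools were TopHat2 2.1.0, limma 3.42.2, Trimmomatic 0.35, SAMtools 0.1.19 and FastQC 0.11.4, with build mm10; the counter, annotation and strand setting are not given in the sources used here. The main table holds raw counts per gene symbol as deposited by the authors (24421 genes). The other holds log2 expression values that the authors deposited for 11843 genes, with a normalization that is not stated, and served only as an alternative.

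The main test was that of edgeR 4.0.16 (R 4.3.3): filterByExpr (11978 genes left), TMM scaling, and a robust quasi-likelihood fit with 1 mean per group over all 16 libraries (12 residual degrees of freedom). The pooled contrast averages both lines. The SE of a log2 fold change is its absolute value divided by the square root of F. Benjamini-Hochberg adjustment ran over all genes tested. Levels are TMM-scaled CPM, and lengths are the union of exons in GENCODE for mm10. Floors of 3 counts cover counting error only. DESeq2 1.42.0 and limma 3.58.1 were run as alternatives. The fit was checked on simulated counts.

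Since no label ties replicates to separate mice, p-values here rest on the spread between libraries, which may be technical. No pair of libraries within a group agreed within sampling noise (chi-square per degree of freedom 5.41 to 61). Replicate numbers paired the mature and immature libraries of a line (correlation 0.211 to 0.547, best match with the same number in 8 of 8 pairs), but not the lines (-0.146 to 0.263, 0 of 8). For stage differences and the interaction, the replicate block gave each same-numbered pair of a line its own level. For comparisons between the lines, it gave each replicate number a level shared by all groups. The genes, the lists and the rule for named genes (all 33 genes; in every other list, the 2 lowest adjusted p-values per direction) were chosen with earlier results of these data known; Sult2b1, Gpr183, Osbpl5, the remaining prenyl genes, untested genes and overlapping genes were named in addition, after their values were seen. Some genes of the list of SREBP partners are not reported here.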

Additional observations from a re-analysis of the deposited data

Results flagged for a closer look

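Among 124 groups of 4 libraries, 31 genes in 4 groups each, 4 (3.23%) held a library set apart from the other 3 by a gap that is large against the whole range, where chance flags about 1 in 20. Ggps1 was 18.98 CPM in replicate 3 of mature Xbp1flIre1fl, against 23.2 to 24.0 CPM in its other libraries. Ebp was 31.8 CPM in replicate 2 of mature Xbp1fl, against 35.1 to 35.3 CPM in the others. Sc5d was 30.8 CPM in replicate 1 of immature Xbp1flIre1fl, against 35.5 to 36.1 CPM in the others. Lipa was 284 CPM in replicate 2 of immature Xbp1flIre1fl, against 311 to 316 CPM in the others. No gene of the 31 was called for a stage difference that differs between the lines.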

How the results depend on the processing

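Of the 31 genes, 18 kept their direction and side of the threshold in the pooled contrast in all 25 alternative settings, and 13 did not in at least 1. With upper quartile scaling, 10 genes were called lower in the pooled contrast, 8 within Xbp1flIre1fl and 9 within Xbp1fl; of the SREBP partners 1 was called higher and 3 lower, and Mbtps1 turned to -0.017; Stard4 (-0.021) and Soat1 (-0.098), not called, also turned. With library sizes alone these counts were 13, 10 and 10 lower among the 31 genes, 0 higher and 7 lower among the SREBP partners, and 3 higher among sterol transfer genes. The same setting turned Soat1 to -0.20 (-0.23 within Xbp1fl), Stard4 to -0.13 (not called), Pggt1b to -0.22, Mbtps1 to -0.12, Erlin1 to -0.14, Osbpl3 to -0.066, Osbpl9 to -0.16 and Hsd3b7 to -0.015; this scaling moves all genes by -0.23 in the median. With the replicate block, 17 genes were called higher and 9 lower in the pooled contrast, 1 prenyl gene was called higher and 1 SREBP partner was called higher; it changed no call of the 31 genes besides those given above. Without the filter on low counts, and without the 2 mature libraries of lowest Ccr7 (chosen after seeing the data), 1 SREBP partner was called higher. Leaving out each library in turn gave 1 to 2 SREBP partners higher and 0 to 1 lower, 0 to 1 prenyl genes higher, and 3 to 6 genes lower within Xbp1fl. In 4 of these fits, and without the 2 libraries of lowest Ccr7, Soat1 was just below 0 and not called. The causes were not tested. Of the 33 genes, Cyp7b1, Ch25h, Soat2 and Tm7sf2 had the fewest counts in mature libraries, which limits their precision.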
